A study of Drosophila melanogaster with 16 samples.

Results

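The genes described are the core circadian clock genes of Drosophila melanogaster: clockwork orange (cwo), timeless (tim), period (per), Clock (Clk), cycle (cyc), vrille (vri), PAR-domain protein 1 (Pdp1), shaggy (sgg), discs overgrown (dco) and cryptochrome (cry). They were chosen by gene symbol in the deposited table, where 8 of the 10 had a row among 10128 genes. Clk and cry were not analysed here. The samples were whole larvae labelled WT, with no strain named. First instar larvae were kept on a low-sugar diet (LSD, 10% yeast) for 24 h at 25 °C. Early in the second instar they were moved either to fresh LSD or to a diet high in sugar (HSD, with 15% sucrose added to 10% yeast), with a blue dye in the food to mark feeding larvae. Feeding larvae were pooled for each sample and frozen after 8 h on LSD (n = 4) or after 4 h (n = 3), 8 h (n = 3) or 16 h (n = 4) on HSD. The labels list 16 samples and mark 2 as removed outliers, HSD 4 h replicate 2 and HSD 8 h replicate 1, which were not analysed here.

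The clock of the fly is a feedback loop of transcription. The bHLH-PAS proteins Clk and Cyc bind E-box sequences as a pair and activate per, tim, vri, Pdp1 and cwo. Per and Tim build up, enter the nucleus and inhibit Clk and Cyc, while Cwo, a bHLH-Orange repressor, binds the same E-boxes. In the second loop Vri represses and Pdp1 activates transcription of Clk. The kinases encoded by dco (Doubletime) and sgg (the fly GSK3) phosphorylate Per and Tim and set the pace, and Cry makes Tim sensitive to light. Most of these genes also have duties outside the clock, and in the larva the clock itself is known from small groups of brain neurons and from peripheral tissues such as the Malpighian tubules.

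Only the 8 h samples allow diet to be compared at a matched time. The comparisons of HSD at 4 h and at 16 h with LSD mix diet with time, and within HSD the time on the diet, the age of the larvae and the time of day cannot be told apart, since the labels state no light regime or clock time. Nothing in the labels says that replicates came from separate cultures, so p-values rest on the scatter of these samples alone, part or all of which may be technical. The libraries held 16300308 to 25284073 reads, and a count of 3 reads was worth 0.117 to 0.182 on the scale of the values. Markers of neurons (13 of 13), glia (6 of 7), midgut (10 of 10), Malpighian tubules (7 of 8) and cuticle (22 of 24) were in the table. None of these was at 0 in all libraries. Of 7 fat body markers only 1 was in the table, too few to follow that tissue. The cuticle gene TwdlJ lay between 12.5 and 42.4 normalised reads in LSD replicates 2 and 3, in all 3 HSD 8 h libraries and in HSD 16 h replicate 2, and at no more than 0.938 in the other 8 libraries. TwdlO, another cuticle gene, ran largely the other way, at 1.26 and 4.50 in LSD replicates 2 and 3 against 14.6 and 26 in replicates 1 and 4, and at 74.2 in HSD 16 h replicate 3.

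Levels are normalised read counts, that is, reads divided by an effective library size, on a scale close to CPM. Tests are limma's moderated tests on log2(value + 0.5) over 10114 genes, with p-values adjusted by the Benjamini-Hochberg method over all of them and called under 0.05. Folds are on that scale and understate the change of low genes.

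The 8 genes fell into an abundant set and a scarce set. Per kilobase of annotated exon, the mean level over the 14 libraries was 24.4 for Pdp1, 20.3 for dco, 16.9 for cwo, 12.6 for vri and 12.6 for sgg. On the same scale cyc reached 1.64, tim 0.680 and per 0.236. The mean value of Pdp1 exceeded that of 94.5% of the genes tested, that of tim 14.1% and that of per 1.97%. The scarce genes therefore rest on few reads: between 33 and 178 per library for tim, 32 and 66 for cyc, and 14 and 27 for per, against 1325 to 2438 for cwo. In whole larvae, fewer cells that express a gene and less RNA per cell cannot be told apart.

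**Figure D1:**
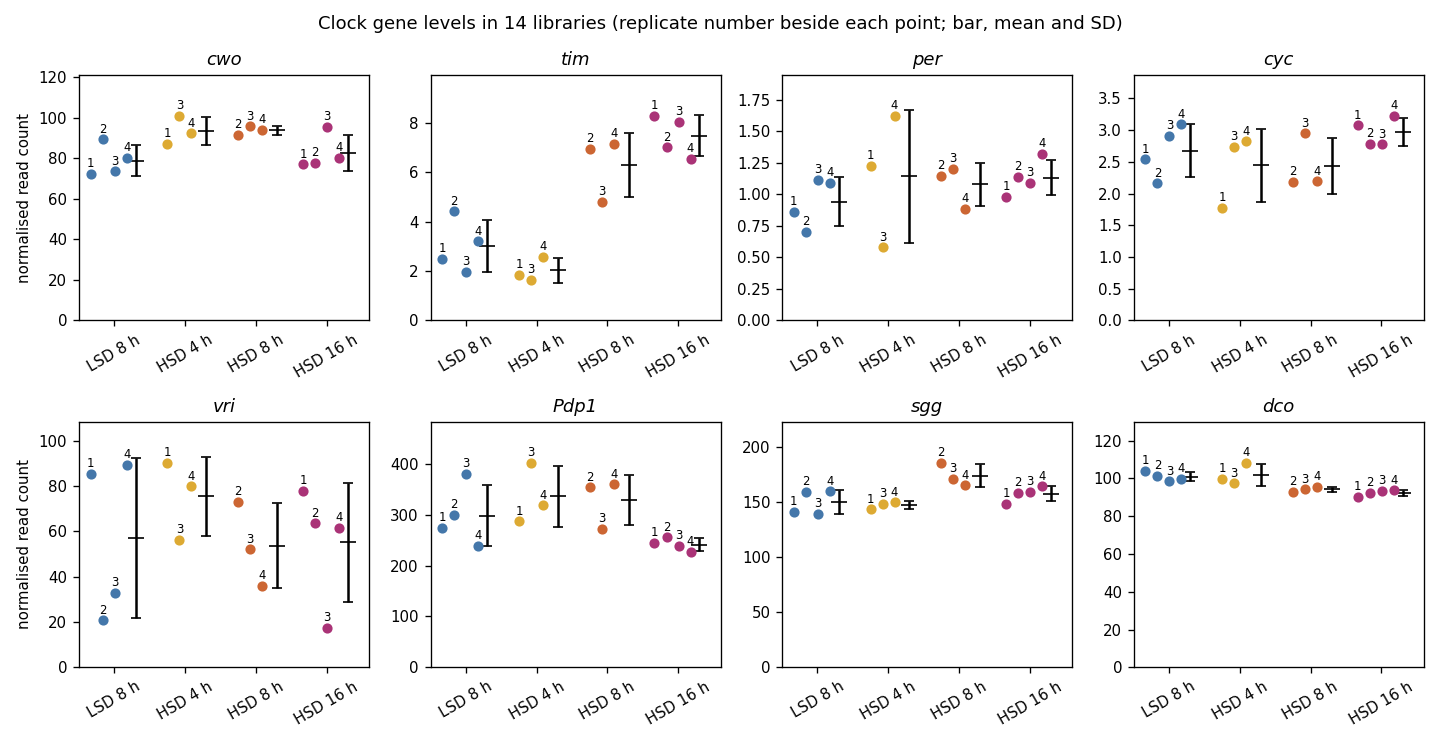
Normalised read count (y axis) of each clock gene in the 4 groups (x axis). Each point is 1 library with its replicate number above it, and the black bar to the right of the points is the group mean with its SD. The HSD 8 h and 16 h points of tim, from 4.80 to 8.29, lie above all its LSD and HSD 4 h points, while the 14 points of vri spread from 17.5 to 90.4 with every group overlapping the others.

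Among the repressors, cwo was higher on HSD than on LSD at 8 h, by a modest amount. The gene lies on chromosome 3R, positions 10388258 to 10400752 on the + strand of BDGP6.54, and overlaps no other annotated gene. Its level in LSD replicates 1 to 4 was 72.4, 89.3, 73.6 and 80.3 (mean 78.9 ± 7.77 SD, n = 4), and in HSD 8 h replicates 2, 3 and 4 it was 91.5, 95.7 and 94.1 (93.8 ± 2.14, n = 3). All 3 HSD 8 h libraries lay above all 4 LSD libraries, with LSD replicate 2 close beneath them. The difference was 0.25 on the log2 scale (SE 0.09, 95% interval 0.06 to 0.45), which is 1.19-fold (limma adjusted p = 0.0461).

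At 4 h on HSD, cwo stood at 87.2, 101 and 92.2 in replicates 1, 3 and 4 (93.5 ± 6.95, n = 3), and differed from LSD by 0.25, which missed the threshold (limma adjusted p = 0.0669). The groups overlapped, since replicate 1 lay below LSD replicate 2. At 16 h the values were 77.0, 77.7, 95.5 and 80.3 (82.6 ± 8.68, n = 4). Replicate 3 stood alone at the level of the 8 h libraries and the other 3 lay within the LSD range. The 16 h group differed from LSD by 0.07 (limma adjusted p = 0.562), from HSD 8 h by -0.19 (0.137) and from HSD 4 h by -0.18 (0.141). From lowest to highest the order was LSD, HSD 16 h, HSD 4 h and HSD 8 h, and no neighbouring groups in that order differed by the test.

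The call for cwo at 8 h was close to the threshold. It was lost in 16 of 27 alternative settings, where the adjusted p ran up to 0.132, and in 11 of the 14 fits that left out 1 library. It was kept only without replicate 2 of LSD, replicate 3 of HSD 4 h or replicate 3 of HSD 16 h, and without any of the others the difference stayed between 0.21 and 0.27 with adjusted p-values up to 0.122. Without HSD 16 h replicate 3, cwo was lower at 16 h than at 8 h by 0.26 (limma adjusted p = 0.0384) and than at 4 h by 0.25 (0.0351), and HSD 4 h then passed against LSD (0.0344), as it did without LSD replicate 2 (0.0217). The summed level of the 6 glia markers was 497 to 514 in LSD, 646 to 776 in HSD 4 h, 684 to 689 in HSD 8 h and 617 to 704 in HSD 16 h. Of the 6, 3 were called higher at 8 h, 2 at 4 h and 2 at 16 h against LSD, with 0 lower in each. Of all genes, 17.5%, 12.8% and 19.4% were called higher in these comparisons. The glia sum was thus also higher on HSD, though not all of the markers were called. A sum weighs the most abundant markers. The median log2 difference of the 6 was smaller, at 0.22 at 8 h, 0.10 at 4 h and 0.09 at 16 h against LSD. The part of the glia markers in the cwo difference was not tested.

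The largest called differences of the 8 were those of tim, which encodes the partner of Per. Its level was 2.50, 4.42, 1.96 and 3.21 in the LSD libraries (3.02 ± 1.06, n = 4) and 1.84, 1.66 and 2.58 at 4 h on HSD (2.03 ± 0.492, n = 3). It was 6.94, 4.80 and 7.15 at 8 h on HSD (6.30 ± 1.3, n = 3) and 8.29, 7.01, 8.05 and 6.55 at 16 h (7.48 ± 0.831, n = 4). Every 8 h and 16 h HSD library lay above every LSD and every 4 h library, the closest being HSD 8 h replicate 3 and LSD replicate 2.

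On HSD, tim rose 1.97-fold at 8 h (log2 0.98, SE 0.22, 95% interval 0.50 to 1.45, limma adjusted p = 0.00426) and 2.33-fold at 16 h (log2 1.22, SE 0.20, adjusted p = 0.000506) against LSD at 8 h. At 4 h it differed from LSD by -0.45, with overlapping groups (adjusted p = 0.159). Within HSD it rose 2.69-fold from 4 h to 8 h (log2 1.43, adjusted p = 0.00543) and 3.18-fold from 4 h to 16 h (log2 1.67, adjusted p = 0.000134). The step from 8 h to 16 h was 0.24 (95% interval -0.23 to 0.72, adjusted p = 0.427). In the order HSD 4 h, LSD, HSD 8 h, HSD 16 h, LSD and HSD 8 h were the neighbouring pair that differed.

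These 4 calls for tim held in all 27 alternative settings, with the highest adjusted p at 0.0281 for 8 h against LSD and 0.0298 for 8 h against 4 h. The summed level of the 10 midgut markers, digestive enzymes for the most part, ran from 1271 to 2072 in LSD, 1038 to 2033 at 4 h, 2709 to 3380 at 8 h and 3563 to 4601 at 16 h on HSD. Of the 10, 7 were called higher and 2 lower at 8 h against LSD, and 8 higher and 2 lower at 16 h against LSD. From 8 h to 16 h, 0 were called higher and 2 lower. Of all genes, 34.4%, 39.7% and 29.5% were called in these comparisons. The midgut sum was, like tim, higher at 8 h and 16 h on HSD, and its part in the tim differences was not tested. The summed level of the 7 Malpighian tubule markers was 164 to 257 in LSD and 181 to 203 at 4 h on HSD. It was 186 to 212 at 8 h and 155 to 170 at 16 h. Unlike tim, the tubule sum was not higher at 16 h than in LSD, and its part was not tested either. tim lies on chromosome 2L, positions 3493986 to 3508119 on the - strand, and shares 545 exon bases with lncRNA:CR46495 on the other strand and 151 with snoRNA:Or-CD16 on its own. Whether strand was used in counting is not stated, so reads of these genes cannot be told apart.

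Transcripts of per, the partner of tim in the inhibitory complex, were few, and no comparison called them. The values were 0.859, 0.703, 1.11 and 1.09 in LSD (0.941 ± 0.196, n = 4), and 1.22, 0.580 and 1.62 at 4 h on HSD (1.14 ± 0.526, n = 3). They were 1.15, 1.20 and 0.887 at 8 h (1.08 ± 0.168, n = 3) and 0.978, 1.14, 1.09 and 1.32 at 16 h (1.13 ± 0.142, n = 4). All groups overlapped. The difference at 8 h against LSD was 0.14 (95% interval -0.31 to 0.58, limma adjusted p = 0.654). A rise of the log2 size seen for tim lay outside that interval, while rises up to 0.58 and falls down to -0.31 lay inside it. At such low values the added 0.5 shrinks the differences of per more than those of tim, so the 2 sizes are not directly comparable. The gene lies on the X chromosome, positions 2685580 to 2692780 on the + strand, and shares 49 exon bases with dyw on the other strand.

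The activator cyc, whose protein pairs with Clk, showed no call in any comparison. Its level was 2.54, 2.16, 2.91 and 3.09 in LSD (2.68 ± 0.413, n = 4) and 1.78, 2.73 and 2.82 at 4 h on HSD (2.45 ± 0.578, n = 3). It was 2.18, 2.95 and 2.19 at 8 h (2.44 ± 0.440, n = 3) and 3.07, 2.79, 2.78 and 3.23 at 16 h (2.97 ± 0.221, n = 4). The groups overlapped throughout, and the 4 libraries of 16 h were the most alike. At 8 h against LSD the difference was -0.11 (95% interval -0.45 to 0.22, limma adjusted p = 0.618). cyc lies on chromosome 3L, positions 19813770 to 19815938 on the - strand, with no overlapping gene.

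In the second loop, vri varied more between replicates than between groups. This bZIP repressor stood at 85.4, 20.8, 32.8 and 89.4 in the LSD libraries (57.1 ± 35.4, n = 4) and at 90.4, 56.3 and 79.9 at 4 h on HSD (75.5 ± 17.5, n = 3). It stood at 73.2, 52.1 and 36.0 at 8 h (53.8 ± 18.6, n = 3) and at 78.0, 63.6, 17.5 and 61.7 at 16 h (55.2 ± 26.1, n = 4). LSD split into a high and a low pair, and 16 h replicate 3 was the lowest of all 14 libraries. Its lowest library held 385 reads, so counting error is small beside this spread.

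The residual SD of vri around the group means was 0.82 on the log2 scale, larger than that of 98.2% of the genes tested, for which the median was 0.14. At 8 h against LSD the difference of mean log2 values was 0.11 with a 95% interval of -1.12 to 1.33 (limma adjusted p = 0.907). Its sign is opposite to that of the means above, and edgeR and DESeq2 gave -0.0880 and -0.0786, so it has no direction. None of the 6 comparisons called it. The low LSD pair, replicates 2 and 3, had TwdlJ at 17.4 and 33.6 against 0.938 and 0.727 in the high pair, and TwdlO at 1.26 and 4.50 against 14.6 and 26. At 8 h on HSD, replicates 2, 3 and 4 had TwdlJ at 35.9, 15.8 and 42.4 and TwdlO at 0.918, 23.0 and 2.87. The lowest vri of that group (replicate 4) stood with the highest TwdlJ, but the highest vri (replicate 2) did not stand with the lowest. At 16 h, replicate 3, the lowest for vri, had TwdlJ at 0 and TwdlO at 74.2. Replicate 2 of 16 h had TwdlJ at 12.5 and vri at 63.6. The part of these cuticle genes in the spread of vri was not tested. vri lies on chromosome 2L, positions 5288944 to 5311223 on the + strand, and no exon of another gene overlaps its own.

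Pdp1, the bZIP activator that opposes Vri and that is also known for a role in muscle gene expression, was the most abundant of the 8 and was lowest at 16 h. It was measured at 274, 300, 380 and 239 in LSD (298 ± 60.4, n = 4), and at 287, 402 and 318 at 4 h on HSD (336 ± 59.6, n = 3). It was measured at 354, 272 and 359 at 8 h (328 ± 49.1, n = 3), and at 244, 255, 239 and 227 at 16 h (241 ± 11.9, n = 4). All 4 libraries of 16 h lay below every other HSD library but overlapped LSD replicate 4.

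From 4 h to 16 h on HSD, Pdp1 fell by 0.46 on the log2 scale (SE 0.15, 95% interval -0.80 to -0.13, limma adjusted p = 0.0339). Against HSD 8 h the 16 h difference was -0.43 and just missed the threshold (adjusted p = 0.0524), and against LSD it was -0.28 (0.134). The call against 4 h was lost in 6 of 27 alternatives, 5 of which left out 1 library. Without HSD 4 h replicate 3 or 4 the adjusted p was 0.148 or 0.0626, and without HSD 16 h replicate 1, 3 or 4 it was 0.0555, 0.0646 or 0.0771. The difference from 8 h was called in 9 of 27, among them edgeR (adjusted p = 0.0493), DESeq2 (0.0311) and the fits without HSD 8 h replicate 3 (0.0287), HSD 4 h replicate 3 (0.0404), LSD replicate 3 (0.0242) or LSD replicate 4 (0.0382). Without LSD replicate 4 the difference from LSD was called too (-0.38, adjusted p = 0.0488).

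The summed level of the 22 cuticle markers was 906 to 1640 at 16 h on HSD, against 3412 to 7176 in LSD, 2958 to 4161 at 4 h and 3531 to 6393 at 8 h. Of the 22, 8 were called lower and 3 higher at 16 h against LSD. At 16 h, 13 were lower and 2 higher against 8 h, and 6 lower and 1 higher against 4 h. Of all genes, 39.7%, 29.5% and 35.9% were called in these comparisons. The cuticle sum was lowest in the group where Pdp1 was lowest, and its part in that difference was not tested. Pdp1 lies on chromosome 3L, positions 7811458 to 7867369 on the - strand, and overlaps no other annotated gene. The table gives 1 value for all its transcripts, so clock and muscle isoforms are summed.

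The kinase gene sgg, which acts in Wnt signalling as well as on Tim, was highest at 8 h on HSD. Its level was 141, 159, 140 and 160 in LSD (150 ± 11, n = 4) and 144, 149 and 150 at 4 h on HSD (147 ± 3.32, n = 3). It was 186, 171 and 166 at 8 h (174 ± 10.6, n = 3) and 149, 158, 160 and 165 at 16 h (158 ± 6.59, n = 4). The 3 libraries of 8 h lay above all 11 others.

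At 8 h on HSD, sgg was 1.16-fold higher than in LSD (log2 0.22, SE 0.06, 95% interval 0.08 to 0.36, limma adjusted p = 0.0211) and 1.18-fold higher than at 4 h (log2 0.24, adjusted p = 0.0499). The first call was lost in 6 of 27 alternatives, among them the fits without HSD 8 h replicate 2 (adjusted p = 0.103), LSD replicate 1 (0.0604) or LSD replicate 3 (0.0511). The second was lost in 18 of 27, with adjusted p-values up to 0.177, and of the 14 fits without 1 library it was kept in those without LSD replicate 2, 3 or 4. At 16 h sgg differed from LSD by 0.08 (adjusted p = 0.344). The gene lies on the X chromosome, positions 2633952 to 2679553 on the + strand, and shares 1470 exon bases with lncRNA:CR45197 on the same strand, whose reads cannot be told apart from its own.

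The other kinase gene, dco, which is also needed for growth of the imaginal discs, was the steadiest of the 8. It was read at 104, 101, 98.5 and 99.8 in LSD (101 ± 2.42, n = 4) and at 99.6, 97.4 and 108 at 4 h on HSD (102 ± 5.81, n = 3). It was read at 92.9, 94.3 and 95.7 at 8 h (94.3 ± 1.40, n = 3) and at 90.2, 92.3, 93.6 and 93.6 at 16 h (92.4 ± 1.60, n = 4). All 7 libraries of 8 h and 16 h on HSD lay below all 7 of LSD and 4 h.

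Its residual SD of 0.04 on the log2 scale was larger than that of only 0.593% of the genes tested, so small differences passed the test. At 16 h dco was 1.09-fold lower than in LSD (log2 -0.13, SE 0.04, limma adjusted p = 0.0367) and 1.10-fold lower than at 4 h (log2 -0.14, adjusted p = 0.0383), while at 8 h it differed from LSD by -0.10 (adjusted p = 0.133). Both calls held with median-of-ratios scaling and were lost with quantile normalization, which left differences of -0.01 and -0.01 (adjusted p = 0.913 and 0.926). They were lost in 11 and 12 of 27 alternatives. Leaving out any 1 library of HSD 16 h ended both, with adjusted p-values up to 0.0887 and 0.0846, as did leaving out HSD 8 h replicate 3 (0.0508 and 0.0534). The call against LSD also ended without LSD replicate 1 (0.0945) or 2 (0.0597), and that against 4 h without replicate 1 (0.0624) or 4 (0.182) of HSD 4 h or replicate 2 of HSD 8 h (0.0506). The gene lies on chromosome 3R, positions 31054085 to 31061210 on the - strand, and overlaps no other gene.

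For HSD at 8 h against LSD, 3 of the 8 rose (cwo, tim and sgg) and 0 fell, where 34.4% of all genes tested were called, 17.5% as higher and 16.9% as lower. A share of 37.5% called is near that of all genes and says nothing particular to the clock. The groups of 4 members did not overlap there (those 3 and dco), against 37.7% of all genes. The median difference of the 8 was 0.14 and that of all genes -0.01.

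For HSD at 4 h against LSD, limma called 0 of the 8, 1 had an unadjusted p under 0.05, and edgeR and DESeq2 called 0 and 0. Of all genes 24.2% were called (12.8% higher and 11.4% lower), and groups did not overlap for 0 of the 8 against 28.9% of all. At 16 h against LSD, tim rose and dco fell, with 39.7% of all genes called (19.4% higher and 20.4% lower), and the groups of 2 members did not overlap against 36.5%. The LSD libraries are shared by these 3 comparisons, so they are not independent of each other.

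Within HSD, tim and sgg rose from 4 h to 8 h, with 9.21% of all genes called (4.71% higher and 4.5% lower), and the groups of 3 members did not overlap against 34.5%. From 8 h to 16 h limma called 0 of the 8, with 29.5% of all genes called (14.1% higher and 15.4% lower). In that step 2 members had an unadjusted p under 0.05, edgeR called 1 and DESeq2 called 1, and groups did not overlap for 2 against 45.4%. From 4 h to 16 h tim rose while Pdp1 and dco fell, with 35.9% of all genes called (16.6% higher and 19.2% lower) and 3 members not overlapping against 45.7%.

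**Figure D2:**
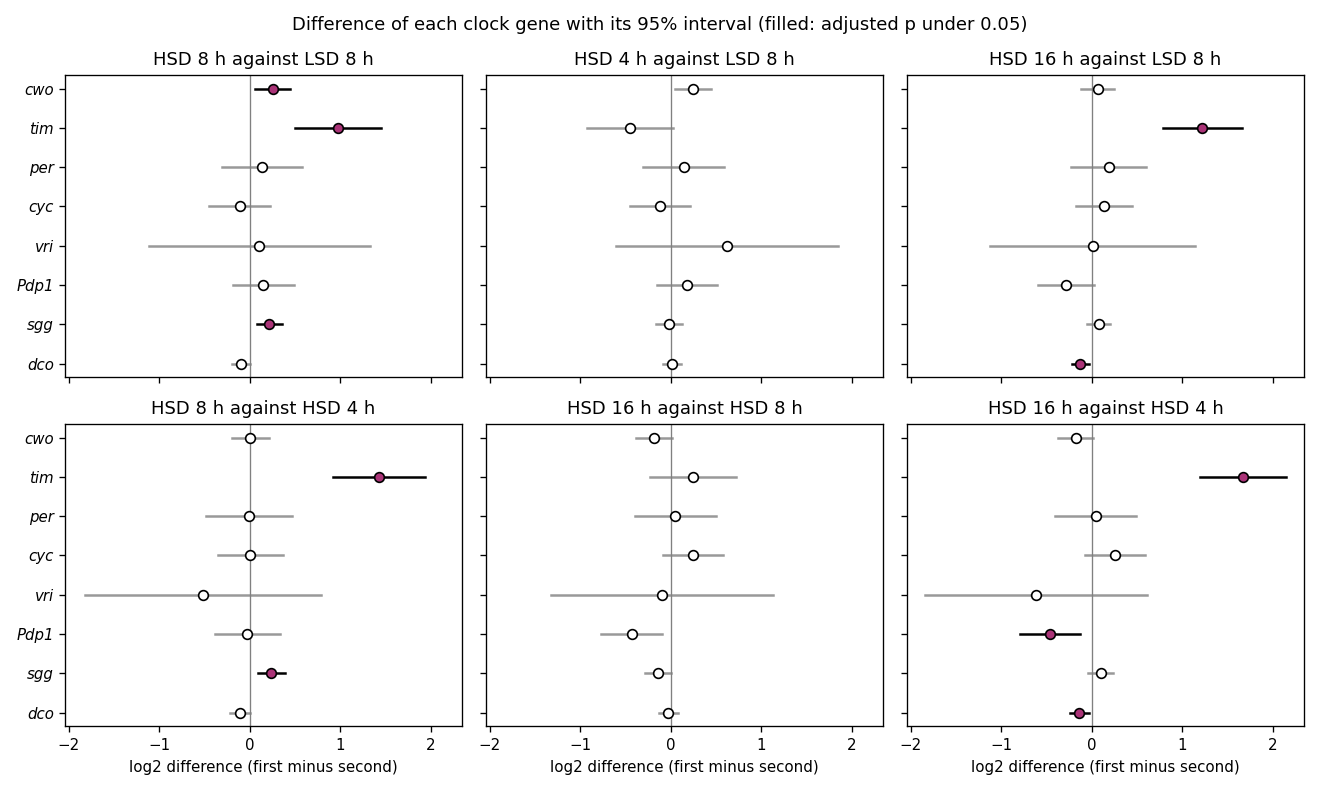
Log2 difference (x axis) of each clock gene (y axis) in the 6 comparisons, first group minus second. Points are limma estimates with 95% intervals, and filled points have an adjusted p under 0.05. tim is filled in 4 of the 6 panels, with estimates from 0.98 to 1.67, and the interval of vri is the widest in every panel.

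The authors' deposited table, which holds 5 of these 6 comparisons, gives cwo at 8 h a log2 fold change of 0.25 with an adjusted p of 0.0460. For tim the authors' deposited table gives 1.11 at 8 h and 1.37 at 16 h against LSD (adjusted p = 0.00489 and 0.000253). The authors' deposited table calls the same number of the 8 genes under 0.05 in 4 of the 5 comparisons. In the fifth, 8 h against 4 h, the authors' deposited table calls 1 where 2 were called here, sgg having an adjusted p of 0.0526 there.

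To see which other genes had the pattern of cwo, 8633 genes with a mean value of at least 5 were ranked by Pearson's r to it over the 14 libraries, on the log2(value + 0.5) scale. The 5 highest were Cyp4p3 (r = 0.958), CG5028 (0.90), CG17834 (0.891), magu (0.887) and Marf (0.883). Cyp4p3 belongs to the cytochrome P450 enzymes, and Marf encodes the fly mitofusin, which fuses mitochondria. Cyp4p3 averaged 39.1 ± 6.45 in LSD, 55.7 ± 4.77 at 4 h, 59.1 ± 4.39 at 8 h and 41.7 ± 5.85 at 16 h on HSD (SD, n = 4, 3, 3 and 4). It shared with cwo the single high library at 16 h, replicate 3, at 50.5 against 38.3 to 39.7 in the other 3. Within groups, as deviations from the group means, its r to cwo was 0.959.

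The same ranking for tim gave Hex-C (r = 0.965), sog (0.949), kdn (0.948), CG10863 (0.937) and CG7841 (0.930). Hex-C encodes a hexokinase, kdn the mitochondrial citrate synthase and sog an extracellular antagonist of the BMP ligand Dpp. Hex-C averaged 12.6 ± 1.32 in LSD, 11.2 ± 0.805 at 4 h, 17.4 ± 2.30 at 8 h and 19.2 ± 2.08 at 16 h on HSD. Like tim, it had its lowest 8 h library in replicate 3 (14.7 against 18.8 and 18.7). Within groups the r of these 5 genes to tim was lower, from 0.384 to 0.754. That of the genes like cwo to cwo ran from 0.733 to 0.959. These ranges are not directly comparable, since tim rests on fewer reads than cwo and differs more between groups.

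For vri, whose list was added after its values were seen, the highest were CG13744 (r = 0.959), CG13082 (0.959), PKD (0.957), CG34201 (0.957) and Fbxl7 (0.946). PKD encodes protein kinase D. CG34201 ran from 121 to 788 over the 14 libraries and CG13744 from 1.23 to 10.3, both lowest in HSD 16 h replicate 3 and next lowest in LSD replicate 2, the same libraries as vri. The spread of vri between replicates was thus shared by other genes. These correlations are descriptions over libraries that share the diet groups, and the genes were picked as the highest of 8633.

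**Figure D3:**
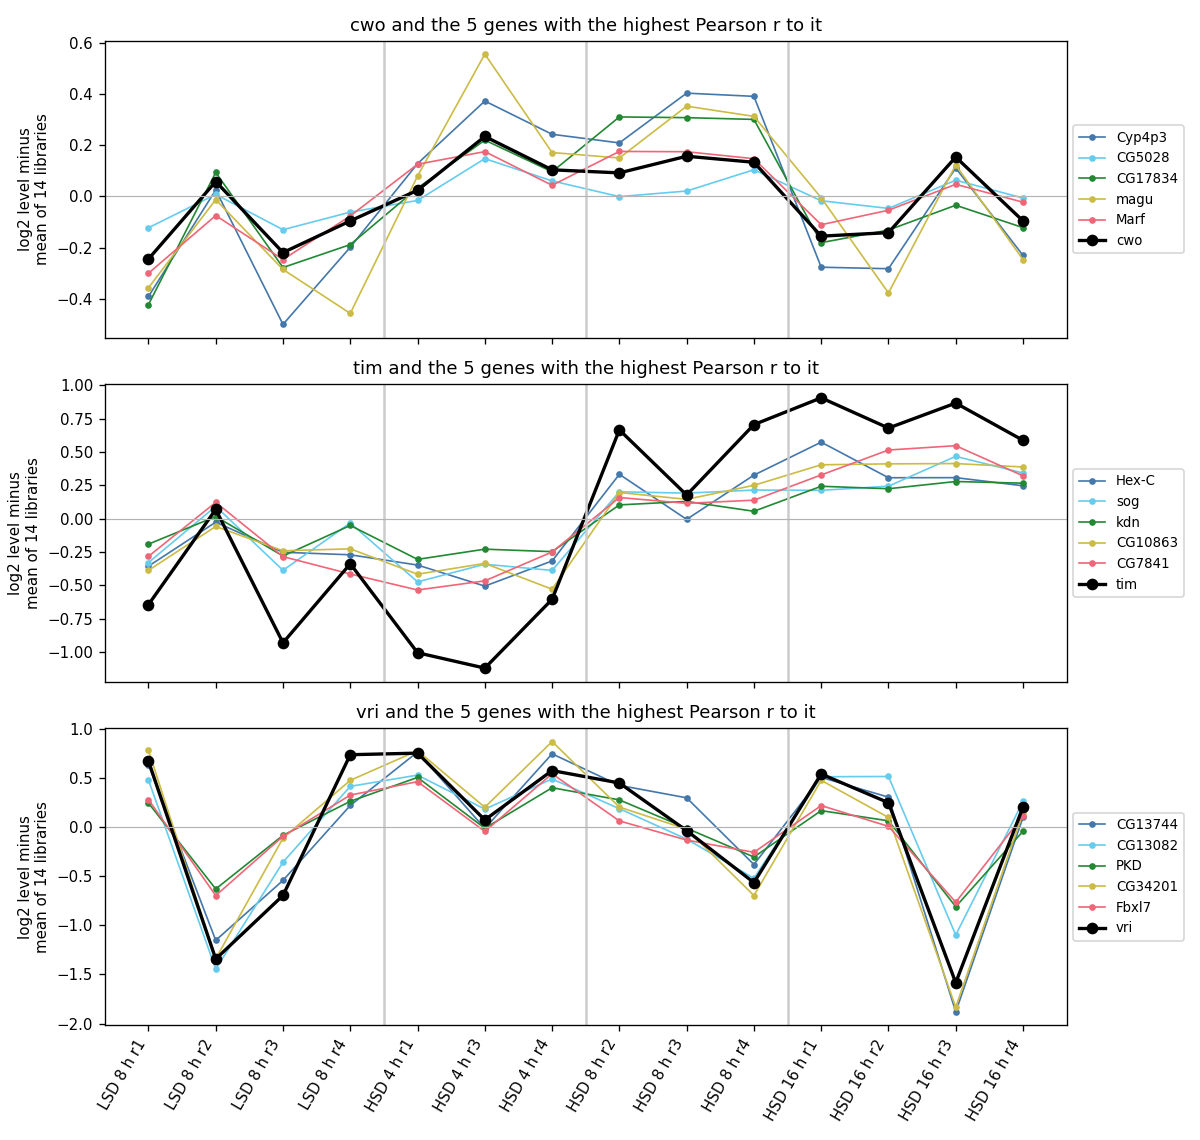
Log2 level minus its mean over the 14 libraries (y axis) for cwo, tim and vri (black) and the 5 genes with the highest Pearson r to each (colours), by library (x axis, r followed by the replicate number). Lines join libraries for the eye and vertical lines part the groups. In HSD 16 h replicate 3, cwo is the highest and vri the lowest of the 4 libraries of that group, and tim steps up at HSD 8 h.

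Other genes of the clock pathway were followed as lists of textbook genes. Of the modifiers of clock proteins, kinases, phosphatases and ubiquitin ligases, 16 of 18 were measured, and at 8 h on HSD against LSD 2 rose (jet and Sik3) and 4 fell (CkIIalpha, CkIIbeta, nmo and Pka-C1), which is 37.5% beside 34.4% of all genes. Sik3, a salt-inducible kinase of nutrient signalling, went from 31.6 ± 3.06 in LSD to 43.0 ± 1.81 at 8 h (1.36-fold, limma adjusted p = 0.000386). It was also called at 4 h (37.6 ± 0.546, adjusted p = 0.0167) and at 16 h (39.8 ± 1.27, adjusted p = 0.00131). The subunits of casein kinase 2, which phosphorylates Per and Tim, fell together at 8 h: CkIIbeta from 164 ± 9.69 to 134 ± 0.988 (adjusted p = 0.00153) and CkIIalpha from 186 ± 10.3 to 153 ± 10.4 (adjusted p = 0.00369). Both rose from 8 h to 16 h on HSD, to 151 ± 3.80 and 177 ± 5.98 (adjusted p = 0.0310 and 0.0231).

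Of the transcription and translation cofactors of the clock, 10 of 12 were measured, with 1 called higher and 2 lower at 8 h against LSD, beside 17.5% and 16.9% of all genes. Without LSD replicate 1, HSD 8 h replicate 2 or HSD 8 h replicate 3 the list had 1 call, and over all fits without 1 library it had 1 to 4. The higher one was cabut (cbt), a Krüppel-like factor induced by sugar in flies, which went from 47.3 ± 6.34 in LSD to 116 ± 9.04 at 4 h, 128 ± 9.68 at 8 h and 129 ± 2.79 at 16 h on HSD. At 8 h this was 2.71-fold (limma adjusted p = 5.7e-07). The RNA-binding protein gene lark changed direction with time: it was 107 ± 7.40 in LSD, 125 ± 4.13 at 4 h (higher, adjusted p = 0.0173), 94.2 ± 2.04 at 8 h (lower, adjusted p = 0.0283) and 111 ± 4.65 at 16 h (adjusted p = 0.507). The chromatin remodeller brm fell from 96.5 ± 9.21 to 81.6 ± 5.60 at 8 h (adjusted p = 0.0444).

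Of the neuropeptides, receptors and channels of clock output, 25 of 28 were measured, and at 8 h Nf1 rose while Dh44, qvr and Sh fell, 16% of the list beside 34.4% of all genes. Those 4 calls became 2 without any 1 of the 3 HSD 8 h libraries, and numbered 2 to 6 over the fits without 1 library. qvr (sleepless), a modulator of the Shaker potassium channel encoded by Sh, went from 76.9 ± 5.96 in LSD to 57.3 ± 3.78, 56.1 ± 3.17 and 62.3 ± 7.01 at 4, 8 and 16 h on HSD (limma adjusted p = 0.00423, 0.00204 and 0.0112). Dh44, a peptide of brain neurons related to the vertebrate CRF, fell from 22.5 ± 2.16 to 17.7 ± 1.46 at 8 h (adjusted p = 0.00627) and 16.9 ± 0.643 at 16 h (0.00104). Nf1, the fly neurofibromin, rose from 56.4 ± 6.73 to 69.4 ± 1.73 at 8 h (0.0310). The summed level of the 13 neuron markers was 1254 to 1568 in LSD and 1210 to 1301 at 8 h on HSD, with 5 of 13 called lower and 0 higher. It was 1144 to 1301 at 4 h, with 2 called lower than in LSD, and 1117 to 1399 at 16 h, with 0 called lower. At both times 0 were called higher. Of all genes, 16.9%, 11.4% and 20.4% were called lower at 8, 4 and 16 h against LSD. The part of the neuron markers in these falls was not tested.

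Of the relatives of cwo among the HES and Hey bHLH-Orange repressors, 6 of 18 were measured. These gave 0 calls by limma, edgeR and DESeq2 at 8 h against LSD, beside 34.4% of all genes. They gave 1 call without LSD replicate 2 or HSD 8 h replicate 4. In that comparison 1 of the 6 had an unadjusted p under 0.05. At 16 h against LSD, 2 of the 6 were called beside 39.7% of all genes: hairy (h), a pair-rule repressor, rose from 45.3 ± 2.91 to 60.8 ± 10.4 (limma adjusted p = 0.00931) and deadpan (dpn), a neural stem cell factor, fell from 3.32 ± 0.557 to 1.81 ± 0.249 (0.00132). Sidpn stood at 4.37 ± 0.561 in LSD and 3.37 ± 0.633 at 8 h (limma adjusted p = 0.0716). Of the bHLH-PAS relatives of Clk and cyc, 8 of 9 were measured and 3 rose at 8 h against LSD with 0 falling, which is 37.5% called and near the 34.4% of all genes. These were sima, the fly HIF alpha subunit, from 154 ± 34.4 to 222 ± 13.8 (limma adjusted p = 0.00613), the juvenile hormone receptor gene Met, from 21.0 ± 2.38 to 28.3 ± 0.892 (0.00162), and its coactivator tai, from 108 ± 10.0 to 125 ± 3.67 (0.0419). At 16 h these 3 stood at 164 ± 6.52, 23.7 ± 0.810 and 97.8 ± 5.19, and all 3 fell from 8 h to 16 h (limma adjusted p = 0.0251, 0.0355 and 0.00404).

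**Figure D4:**
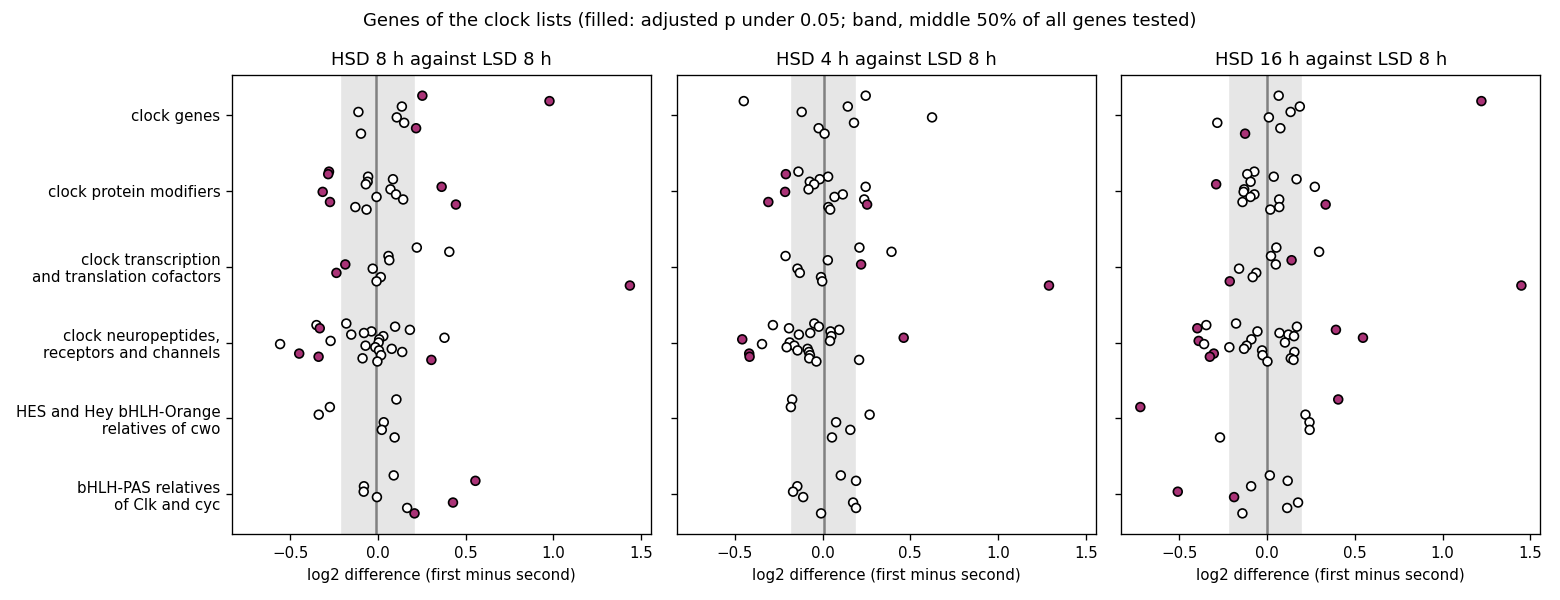
Log2 difference (x axis) of each measured gene of the clock lists (rows) on HSD for 8, 4 and 16 h (panels from left to right), each against LSD. Filled points have a limma adjusted p under 0.05, and the grey band and line are the middle 50% and the median of all genes tested. The filled point at the far right of the cofactor row is cbt, at 1.44 at 8 h, and that of the clock gene row is tim, at 0.98 at 8 h and 1.22 at 16 h.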

How the data were processed

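RNA of whole larvae, freed of ribosomal RNA, went into stranded libraries that were read as single-end 75 bp reads in 2 technical runs each, per the labels' protocols. The tools named in the submitters' processing notes are Trimmomatic, TopHat2 2.1.0, HTSeq and limma. For build, annotation, strand setting and gene filter nothing is given in the sources used here. All values per library deposited by the authors are a signal, reads over an effective library size, and 100% of them were whole reads within a tolerance of 0.01 read. Per the file headers the same table holds the authors' log2 fold changes, p-values and scores (t and F statistics), used only where named.

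From these values, log2(value + 0.5) was fitted with limma 3.58.1 in R 4.3.3, with 1 mean for each of the 4 groups and a variance trend. The filter kept the 10114 genes that reached 1 in 3 libraries. Tests are two-sided, with Benjamini-Hochberg adjustment over the genes tested and a threshold of 0.05. The fit was also run on simulated independent counts with known changes in HSD 8 h alone, which cannot show its error rate in these data. There were 27 alternative settings, among them edgeR 4.0.16 and DESeq2 1.42.0 on the recovered reads. Positions and exon lengths come from Ensembl 115 (BDGP6.54), where 9990 of the 10128 identifiers were found.

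Named genes were all clock genes with a row, the 5 genes most like cwo and like tim, and the 3 members of each other list with the smallest adjusted p at 8 h against LSD. Members and lists were chosen with earlier results of these data known. Genes outside that rule (jet, nmo, Pka-C1, Sh, TwdlJ, TwdlO, the genes like vri and those of the closing observations) were named after their values were seen. The tests had been written for CPM values, but column sums differ between libraries, so the unit is called a signal and the test was kept. A planned description of promoter motifs was not run. Floors cover counting error only.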

Additional observations from a re-analysis of the deposited data

How the results depend on the processing

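The calls for tim held under all 27 alternatives. The number of the 8 clock genes called did not. With a fit of only the groups compared it was 1 for HSD 8 h and for HSD 16 h against LSD, and 1 for the steps from 4 to 8 h and from 8 to 16 h on HSD. Array weights gave 1 for HSD 4 h against LSD and 2 for the step from 8 to 16 h. EdgeR and DESeq2 gave 1 for that step. For the step from 4 to 8 h, a pseudocount of 0.1, quantile normalization, no variance trend and edgeR each gave 1. Leaving out together LSD replicates 2 and 3 and HSD 16 h replicate 2, which was chosen after seeing the data, gave 1 for HSD 16 h against LSD and for each of these steps. That setting leaves TwdlJ high in the HSD 8 h libraries alone. Without 1 library at a time the number ran from 1 to 3 for HSD 8 h, 0 to 1 for HSD 4 h and 1 to 3 for HSD 16 h against LSD. It ran from 1 to 2 for 4 to 8 h, 0 to 1 for 8 to 16 h and 1 to 3 for 4 to 16 h on HSD.

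Deviations from the group means of same-numbered libraries correlated from -0.46 to 0.35 over 18 pairs (median -0.0095). Those of differently numbered libraries correlated from -0.503 to 0.557 over 55 pairs (median 0.032). Libraries of the same number were thus no more alike, which cannot show whether samples were collected in pairs. With the replicate block the number of clock genes called was 1 for HSD 16 h against LSD and 1 for the step from 4 to 8 h, and that of all genes for this step was 159, where 931 were called without it and 1770 with array weights. A fit of only the groups compared called 1411 genes for HSD 4 h against LSD, where 2449 were called with all groups. Without 1 library the genes called numbered 2643 to 3757, 1793 to 2495 and 3356 to 4077 for HSD 8, 4 and 16 h against LSD. For the steps from 4 to 8, 8 to 16 and 4 to 16 h they numbered 320 to 1274, 2041 to 3229 and 2763 to 3882. Quantile normalization moved the share of calls that were higher from 48.8% to 59.4% for HSD 16 h against LSD. For the same 3 steps it moved from 51.1% to 38.0%, from 47.8% to 69.0% and from 46.4% to 58.2%.

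Log2 differences that changed sign were not called in either direction. For vri, array weights, edgeR, DESeq2 and the fit without the 3 libraries gave -0.235, -0.0880, -0.0786 and -0.754 for HSD 8 h against LSD, and -0.122, -0.0497, -0.0463 and -0.983 for HSD 16 h. Without the 3 libraries it was -0.237 for HSD 4 h. For the step from 8 to 16 h, vri gave 0.0161 with quantile normalization and 0.113, 0.0383 and 0.0323 with array weights, edgeR and DESeq2. Without 1 library, vri ran from -0.288 to 0.404 and -0.385 to 0.488 for HSD 8 and 16 h against LSD and from -0.354 to 0.381 for that step. For sgg, array weights and the replicate block gave 0.0015 and 0.0011 for HSD 4 h against LSD (without 1 library, -0.0561 to 0.0087), and quantile normalization gave 0.0556 for 8 to 16 h. For dco, quantile normalization gave -0.0007 and the fit without the 3 libraries -0.0029 for HSD 4 h against LSD (without 1 library, -0.0346 to 0.0423), and quantile normalization gave 0.141 for 8 to 16 h. For cwo, quantile normalization and the block gave -0.0263 and -0.0404 for 4 to 8 h (without 1 library, -0.0415 to 0.0634, and -0.0054 to 0.127 for HSD 16 h against LSD). For 4 to 8 h, per gave 0.0159 and 0.0026 with a pseudocount of 0.1 and with the block, and cyc gave -0.0369, -0.0061 and -0.0015 with quantile normalization, edgeR and DESeq2. Without 1 library, HSD 4 h against LSD ran from -0.0689 to 0.419 for per and -0.216 to 0.0553 for cyc. The step from 4 to 8 h ran from -0.283 to 0.205 for per, -0.167 to 0.104 for cyc and -0.136 to 0.107 for Pdp1. The later steps ran for per from -0.0401 to 0.107 (8 to 16 h) and -0.232 to 0.255 (4 to 16 h). The cause of these shifts was not tested. A filter of 5 leaves out per and cyc, which have 26 alternatives.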

Other observations

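Some values outside the comparisons above were picked after they were seen. In 3 of the 4 groups the library with the lowest vri was the library with the highest cwo (LSD replicate 2, HSD 4 h replicate 3 and HSD 16 h replicate 3). In HSD 8 h the lowest vri was in replicate 4 and the highest cwo in replicate 3.

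Among the bHLH-PAS relatives, trachealess (trh), a regulator of tracheal development, averaged 60.4 in LSD, 53.7 at 4 h, 57.0 at 8 h and 42.5 at 16 h on HSD, and fell at 16 h against each other group (limma adjusted p = 0.000614 against LSD, 0.0131 against 4 h and 0.00532 against 8 h). The peptide gene CCHa1 averaged 2.87 in LSD and 4.10, 3.83 and 4.36 at 4, 8 and 16 h on HSD. It was called higher at 4 h and 16 h (limma adjusted p = 0.0327 and 0.00598) but not at 8 h, the matched time (0.0574). Its receptor gene CCHa1-R averaged 3.09 in LSD and 2.11, 3.09 and 2.85 at 4, 8 and 16 h on HSD and was called lower at 4 h alone (limma adjusted p = 0.0178, against 0.978 and 0.567). The ubiquitin ligase gene slmb, whose product degrades Per in flies, averaged 84.4 in LSD and 81.6, 80.5 and 68.9 at 4, 8 and 16 h on HSD, and was called lower than in LSD at 16 h alone (limma adjusted p = 0.00195). Pdf, the peptide of the main clock neurons, averaged 8.42 in LSD and 8.17, 7.39 and 7.36 at 4, 8 and 16 h on HSD and was not called.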
